A study of Drosophila melanogaster with 10 samples.

Results

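In Drosophila ovarian somatic cells, 9 genes, nab, Argk, dpr17, CG6579, CG34187, CG9521, CG42489, CG32599 and CG15784, were followed through 6 poly(A) RNA libraries. They were picked by name because their RNA was among the lowest, relative to the control, in the knock-downs of Piwi, Mael or HP1a, so their values in those 3 libraries chose them and are given as a description. They are 9 of 13984 gene names in the deposited tables, and each stood in a single entry. All 9 had a mean of at least 5 RPKM (reads scaled by transcript length and by library size) over the 6 libraries, and thus none was lost to a filter on low values. Of all genes, 7565 had a mean of at least 1 RPKM once genes of short RNAs were left out, and 6552 had a mean of at least 5 RPKM.

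The cells are OSC, a cultured line from the somatic follicle cells of the fly ovary, grown at 26 °C and collected 2 days after a single transfection with siRNA. The control received siRNA against EGFP, a sequence foreign to the fly, and the other cultures received siRNA against Piwi, Armi, Mael, CG3893 or HP1a; no other allele or agent is given for them in the labels. Each group held 1 RNA library. The spread between cultures is therefore unknown, differences could not be checked in replicates, and p-values are left out. Pol II libraries of the series were not used here, as their values cover transposable elements.

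Piwi is a nuclear Argonaute protein that carries piRNAs, small RNAs matched to transposons, and directs the silencing of transposon transcription in the ovary. Armi is a helicase needed to make those piRNAs, Mael and the zinc finger protein CG3893 act with Piwi in the nucleus, and HP1a binds methylated histone H3 in heterochromatin. The pathway is known for repressing transposons, while the 9 genes here are cellular genes with other roles or with none described.

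Library totals recovered from the deposited values ran from 18584526 reads in HP1a to 36729626 in Piwi. The targeted gene stood between 10.3% of control, for mael, and 48.4%, for CG3893, in the library of its own knock-down. Of 7 follicle cell markers, 6 had a mean of at least 1 RPKM, among them tj, a transcription factor gene of gonadal soma, between 150.9 and 206 RPKM. The other, slbo, was at most 0.506 RPKM. Of the germline markers, nos was at most 0.0607 RPKM and osk at most 0.118 RPKM, while vas stood at 6.38 RPKM in HP1a against 1.56 in the control. The summed level of the 6 germline markers was at most 4.20 RPKM outside HP1a, against 10.8 RPKM in HP1a, and its part in the members' values was not tested.

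The genes formed 2 patterns by level. In the first, 7 of them, nab, Argk, CG6579, CG9521, CG42489, CG32599 and CG15784, were highest in the control, lowest in HP1a and next lowest in Mael. The other two, dpr17 and CG34187, were lowest in Piwi. As the members were picked for low values in these libraries, this split restates the choice and carries no test.

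**Figure D1:**
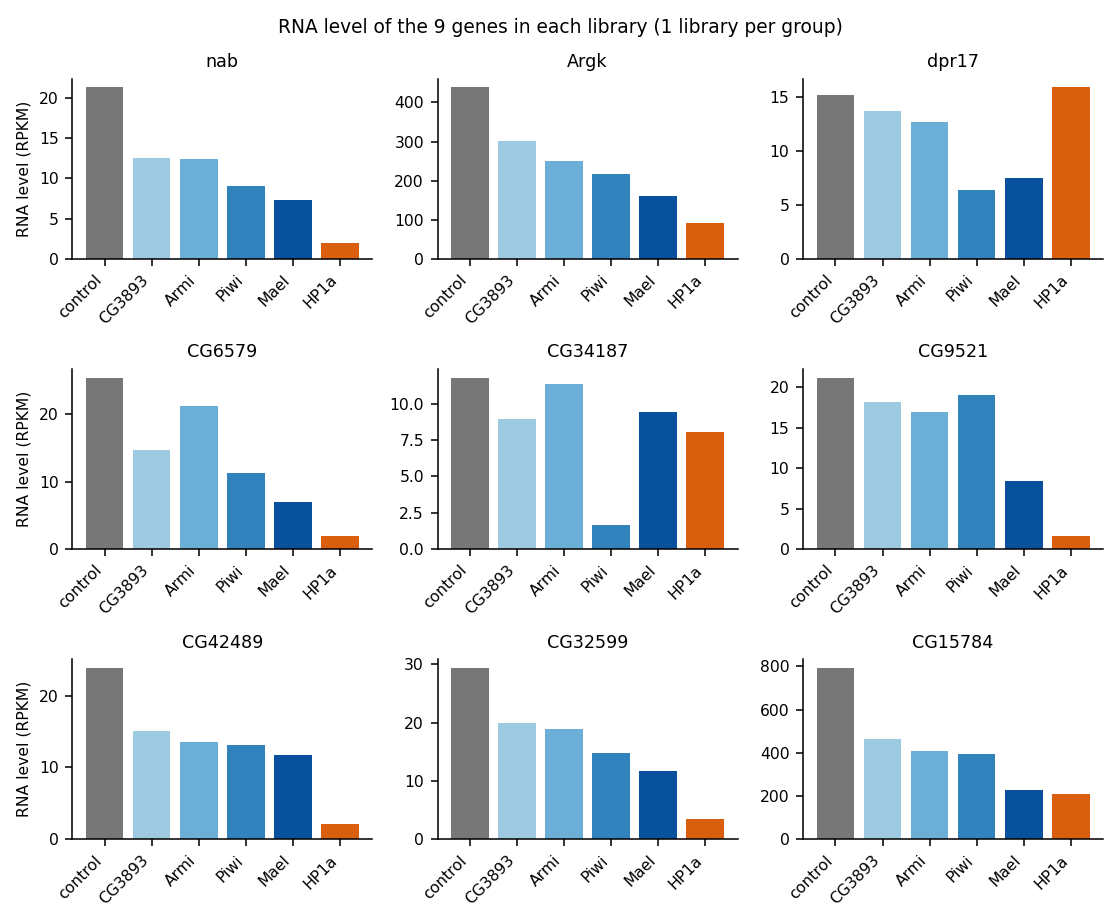
RNA level in RPKM (vertical axis, from 0, scaled for each gene) in the 6 libraries, each bar being 1 library with no error bar because there are no replicates. The first pattern, in 7 genes, has HP1a as its lowest bar, while dpr17 is lowest at 6.38 RPKM and CG34187 at 1.62 RPKM in Piwi.

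The first role represented is transcriptional control. The gene nab (chromosome 3L, 4153617 to 4160932 in build dm3, as the files give it) encodes a cofactor related to the mammalian NAB proteins, which in flies works with the zinc finger proteins Rotund and Squeeze in the wing and nervous system. Its RNA stood at 21.3 RPKM in the control, 12.5 in CG3893, 12.4 in Armi, 9.04 in Piwi, 7.27 in Mael and 1.95 in HP1a. The control was thus the highest library and HP1a the lowest, with CG3893 and Armi nearly level. Relative to the control, nab was at 42.4% in Piwi, with a 95% exact binomial interval of 37.1 to 48.4, at 34.1% in Mael (28.9 to 40.2) and at 9.16% in HP1a (6.31 to 12.7). Those intervals were computed on the reads that 1 kb of transcript would hold, since transcript lengths are not in the files; they cover counting error only and say nothing of the spread between cultures. In HP1a the value corresponds to 36.3 reads per kilobase, against 722 in the control. In a bulk culture, fewer cells with nab RNA and less nab RNA per cell cannot be told apart, here and for the other genes.

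Among the genes of nab's zinc finger partners, sqz ranged from 8.08 RPKM, in the control, up to 9.33, in HP1a. The gene rn, which encodes Rotund, was at most 0.594 RPKM, and sr, a fly relative of the mammalian genes whose proteins bind NAB, at most 0.0439 RPKM. Of these 3 genes only sqz reached a mean of 1 RPKM, and it was past 2-fold in no knock-down on the log2(RPKM + 1) scale.

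Energy metabolism was represented by Argk (3L, 9041961 to 9059127), listed as Argk1 in the RefSeq gene table of release 6. It encodes arginine kinase, which moves phosphate between ATP and arginine and so buffers ATP in tissues of high demand. Its RNA was abundant, at 439 RPKM in the control, 302 in CG3893, 250.1 in Armi, 216 in Piwi, 161 in Mael and 91.7 in HP1a. The order of the 6 libraries was the same as for nab, but the range was narrower, with 4.78-fold between the highest and lowest library against 10.9-fold for nab. Argk was at 49.3% of control in Piwi (48.0 to 50.7), 36.7% in Mael (35.5 to 38.0) and 20.9% in HP1a (19.9 to 22.0). The related kinase genes CG5144 (Argk2) and CG4546 were at most 0.670 and 1.196 RPKM over the 6 libraries, so that Argk had almost all of the summed arginine kinase level.

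CG15784 (X, 5324712 to 5326494), for which no role is given here, was the most abundant of the 9. It stood at 793 RPKM in the control, 463 in CG3893, 409 in Armi, 395 in Piwi, 227 in Mael and 209.7 in HP1a. Mael and HP1a were close for this gene, at 28.6% (27.8 to 29.4) and 26.4% (25.6 to 27.3) of control. CG15784 and Argk lay at percentiles 98.5 and 97.5 of all genes by their level in the control, while the other 7 lay between percentile 27.6, for CG34187, and percentile 55.8, for CG32599. The median gene stood at 24.5 RPKM.

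Cell surface proteins were represented by CG6579 and dpr17. CG6579 (2L, 12175448 to 12177886) is listed as atilla in the release 6 table and encodes a membrane-anchored protein of the Ly6 family, known as a marker of lamellocytes, blood cells that wrap parasites. Its RNA was at 25.4 RPKM in the control, 21.1 in Armi, 14.7 in CG3893, 11.2 in Piwi, 7.00 in Mael and 1.90 in HP1a. Armi was closer to the control than to the other knock-downs. CG6579 had the widest range of the 9 genes, 13.4-fold, and was at 44.2% of control in Piwi (39.2 to 49.7), 27.5% in Mael (23.4 to 32.5) and 7.46% in HP1a (5.13 to 10.4).

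Blood cell markers differed in level. Hml, He and NimC1 were at most 0.0272, 0.110 and 0.0236 RPKM in all 6 libraries. Of the 9 hemocyte markers, 3 had a mean of at least 1 RPKM, srp, Pxn and CG42640 (PPO3), and the summed level of the list ran from 23.9 RPKM in the control to 33.5 RPKM in HP1a, where srp stood at 21.6 RPKM, past 2-fold higher than its 8.83 RPKM in the control. Pxn ranged over the libraries from 7.83 to 10.7 RPKM. PPO3 was below the control in all 5 knock-downs and lowest in HP1a, with 3.62 RPKM against 5.54 in the control, or 65.3%. Of all genes, 18.5% had HP1a lowest and the control highest. The remaining markers, PPO1, PPO2 and ItgaPS4, were at most 0.171, 0.0504 and 0.290 RPKM. In HP1a PPO1 and PPO2 were above the control and ItgaPS4 was below it. The part of these markers in the values of CG6579 was not tested.

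The Ly6 family held other genes with low values in HP1a. Besides CG6579, 11 Ly6 genes reached a mean of 1 RPKM, and 3 of them lay past 2-fold lower there on the log2(RPKM + 1) scale used for all counts, beside 1.61% of all genes, and 0 in the other knock-downs. CG9336 had 162 RPKM in HP1a, 322 in Piwi, 348 in Mael and 578 in the control, so that HP1a was at 28.1% of control. CG9338 was at 48.4% and CG9335 (twit) at 44.6% of control in HP1a. The other 8 ranged in HP1a from 63.4% of control, for CG31675, to 155% for bou, both under 5 RPKM. Between them CG31676 was at 89.97% and rtv at 105%. The median log2 change of the 11 genes in HP1a was -0.15, against -0.08 for all genes. These genes were listed with earlier results of the same libraries known.

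The gene dpr17 (3R, 7920599 to 7937144) encodes an immunoglobulin-domain surface protein of the Dpr family, whose members bind DIP proteins and are known from synaptic partner choice. Its RNA was at 15.2 RPKM in the control, 15.9 in HP1a, 13.7 in CG3893, 12.7 in Armi, 7.47 in Mael and 6.38 in Piwi. Piwi and Mael formed the low pair, and HP1a was the highest library, at 105% of control (90.3 to 121). In Piwi dpr17 was at 42.0% of control (35.8 to 49.1) and in Mael at 49.2% (41.5 to 58.3). The Piwi and Mael intervals overlapped each other and both lay below that of HP1a.

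Of 31 dpr and DIP genes, 8 had a mean of at least 1 RPKM, dpr17 among them. None of the other 7 was past 2-fold lower in any knock-down. In the opposite direction dpr4, under 3 RPKM in the other libraries, stood at 20.1 RPKM in HP1a against 0.503 RPKM in the control, and was past 2-fold higher in Mael as well, at 2.78 RPKM. The share of all genes past 2-fold higher was 2.17% in Mael and 3.61% in HP1a. The paralog dpr8 kept between 12.5 and 13.0 RPKM in all 6 libraries, and dpr19, at 4.51 RPKM in the control, was at 63.3% of control in Piwi and 130% in HP1a.

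**Figure D2:**
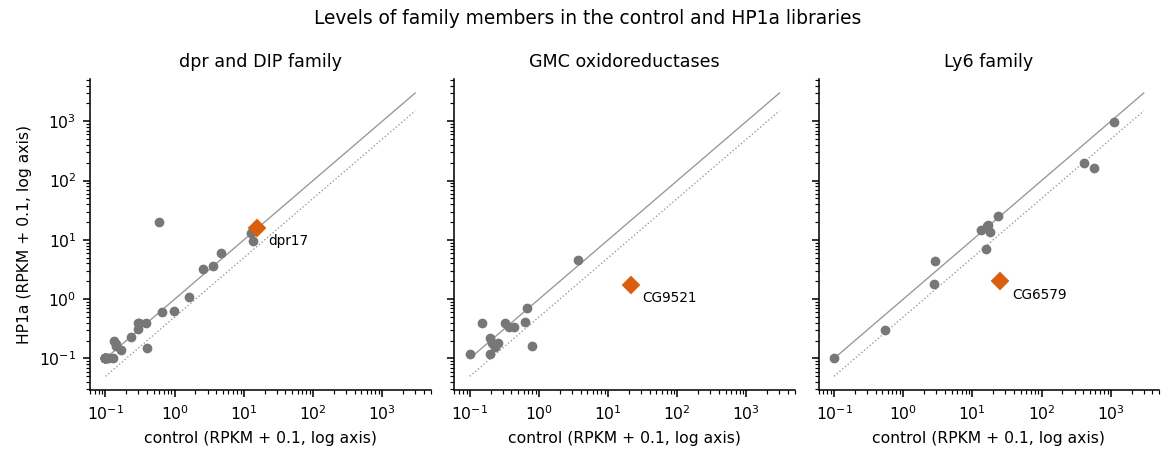
Level in the control (horizontal) and HP1a library (vertical), in RPKM + 0.1 on log axes, for genes of the dpr and DIP, GMC oxidoreductase and Ly6 lists, each point a gene; the solid line marks equal levels and the dotted line a level 2-fold lower in HP1a. CG9521 at 1.67 RPKM and CG6579 at 1.90 RPKM lie far below the dotted line, while dpr17 lies on the solid line and dpr4, at 20.1 RPKM in HP1a, above it.

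The enzyme gene CG9521 (X, 14745289 to 14747155) belongs to the glucose-methanol-choline (GMC) oxidoreductases, flavin enzymes that oxidise alcohol groups, several of which lie side by side on the X chromosome. It was at 21.2 RPKM in the control, 19.0 in Piwi, 18.2 in CG3893, 16.98 in Armi, 8.46 in Mael and 1.67 in HP1a. Piwi, CG3893 and Armi thus lay close to the control and to each other, between 80.2% and 89.7% of it, while Mael was at 39.9% (34.1 to 46.6) and HP1a at 7.87% (5.31 to 11.3). CG9521 was the member with the smallest difference in Piwi. Of the 15 GMC genes, only CG9503 also had a mean of at least 1 RPKM, at 3.52 RPKM in the control and 4.45 in HP1a. Among the genes under 1 RPKM, CG9518 was listed at 0.0603 RPKM in HP1a, 0.221 in Mael, 0.342 in Piwi and 0.697 in the control.

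CG42489 and CG32599 have no role given here. CG42489 (3R, 4479597 to 4480488) stood at 23.9 RPKM in the control, 15.1 in CG3893, 13.5 in Armi, 13.1 in Piwi, 11.7 in Mael and 2.19 in HP1a. The 4 piRNA factor knock-downs lay close together, between 49.1% and 63.2% of control, and HP1a stood well apart at 9.17% (6.32 to 12.7, on its 0.892 kb). CG32599 (X, 14137718 to 14140547) was at 29.4 RPKM in the control, 19.9 in CG3893, 18.8 in Armi, 14.8 in Piwi, 11.7 in Mael and 3.55 in HP1a. Its libraries were more evenly spaced, down to 12.1% of control in HP1a (9.29 to 15.5).

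CG34187 (2R, 11180438 to 11182593) differed from the rest in being low in a single library. Its RNA was at 11.8 RPKM in the control, 11.3 in Armi, 9.41 in Mael, 8.96 in CG3893, 8.03 in HP1a and 1.62 in Piwi. The other 4 knock-downs lay between 68.1% and 96.2% of control, while Piwi was at 13.7% (10.2 to 17.96). In CG3893, at 76.0% of control, CG34187 had rank 68 from the lowest of 6552 genes. The release 6 table gives CG34187 as an older name both of Trpm, a cation channel gene, and of the long noncoding RNA gene lncRNA:CR44241, so its identity in current annotation is uncertain. The gene trpm lies 52 bases from it in the files. Its level was 8.68 RPKM in Piwi, 7.35 in HP1a and 11.2 in the control, which puts Piwi at 77.6% and HP1a at 65.7% of control. In HP1a the percents of CG34187 and trpm were thus close, while in Piwi CG34187 was far lower.

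**Figure D3:**
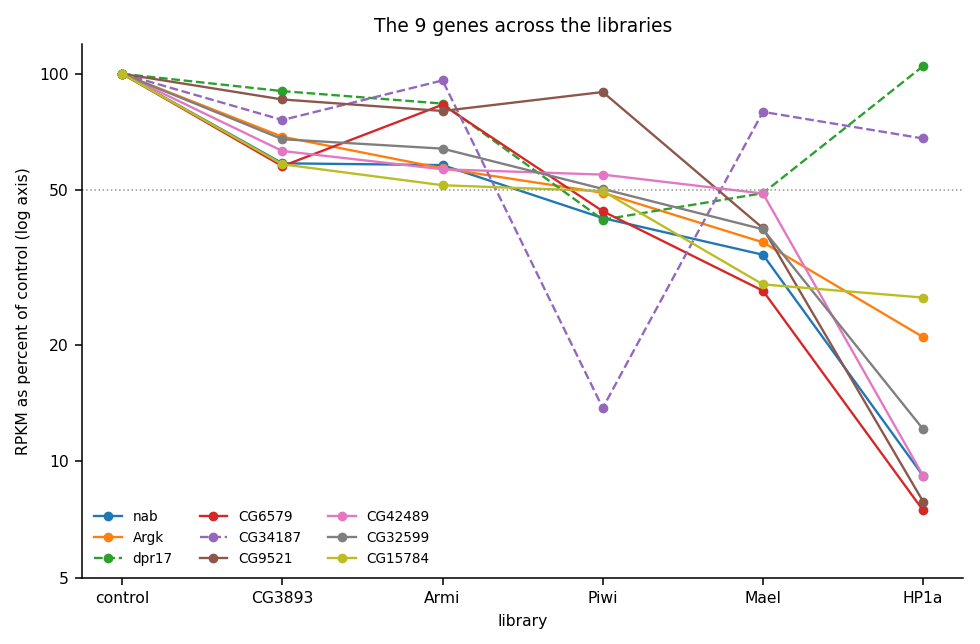
RPKM of each of the 9 genes as a percent of the control library (log axis) across the 6 libraries, each point 1 library; lines only join points of a gene, dashed for dpr17 and CG34187, and the dotted line marks 50%. The solid lines end between 7.46% and 26.4% in HP1a, whereas dpr17 and CG34187 reach their lowest points, 42.0% and 13.7%, in Piwi.

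Counted against a limit of 2-fold lower on log2((knock-down + 1)/(control + 1)), which stood in place of a test, 6 of the 9 genes were past it in Piwi, where 0.212% of all genes were. They were nab, Argk, dpr17, CG6579, CG34187 and CG15784, with log2 changes from -2.29 to -1.004. Argk and CG15784 lay at the limit, at -1.02 and -1.004. In Mael 6 were past it, beside 0.476% of all genes: nab, Argk, CG6579, CG9521, CG32599 and CG15784. There dpr17 and CG42489, at 49.2% and 49.1% of control, missed the limit through the added 1 RPKM. With 0.1 RPKM added 8 members passed, beside 54 of 7565 genes. In HP1a 7 were past it, beside 1.61% of all genes. CG34187 was short of it, and dpr17 was slightly above the control, at a log2 change of 0.062. These 3 comparisons chose the members, so nothing is read from the counts. The share of all genes past the limit in any of the 5 knock-downs was 1.88%. At 1.5-fold, 8 members were lower in Piwi, 8 in Mael and 7 in HP1a, beside 1.35%, 2.29% and 5.19% of all genes, and by any amount 9, 9 and 8 were, beside 61.3%, 60.4% and 61.0%. No member was past 2-fold higher in a knock-down, a limit that 1.31% of all genes passed in Piwi and 0.753% in both Armi and CG3893.

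By rank among the 6552 genes that reached a mean of 5 RPKM, CG6579, CG9521, CG42489, nab and CG32599 were the 5 lowest in HP1a, in that order, from a log2 change of -3.19 to -2.74. The next genes, which are not members, were ImpL3, the lactate dehydrogenase gene, at -2.63 and CG7224 at -2.59. In Piwi CG34187 was the lowest at -2.29, the targeted gene piwi the next at -1.72, and nab, dpr17, CG6579, Argk and CG15784 followed, with Hf at -0.995 just after them. In Mael CG15784 had rank 5 from the lowest at -1.80 and CG6579 rank 6 at -1.72, behind CG42303, mael itself, CG42456 and ImpL3.

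The Armi and CG3893 libraries were not used to pick the genes, although the control they are compared with was. All 9 genes were lower than the control in each of them, where 59.2% of all genes in Armi and 54.6% in CG3893 were lower by any amount. None was past 2-fold lower, beside 0.0793% and 0.0529% of all genes. At a limit of 1.5-fold, 5 of 9 were lower in Armi, beside 0.674% of all genes, and 4 of 9 in CG3893, beside 0.37%. Those in Armi were nab, Argk, CG42489, CG32599 and CG15784, and those in CG3893 were nab, CG6579, CG42489 and CG15784. CG15784 had rank 4 from the lowest of the 6552 genes in Armi, at a log2 change of -0.95, and rank 5 in CG3893, at -0.77. The median log2 change of the 9 was -0.62 in Armi and -0.54 in CG3893, against -0.03 and -0.02 for all genes. The control is shared by all 5 comparisons, which are therefore not independent of each other.

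**Figure D4:**
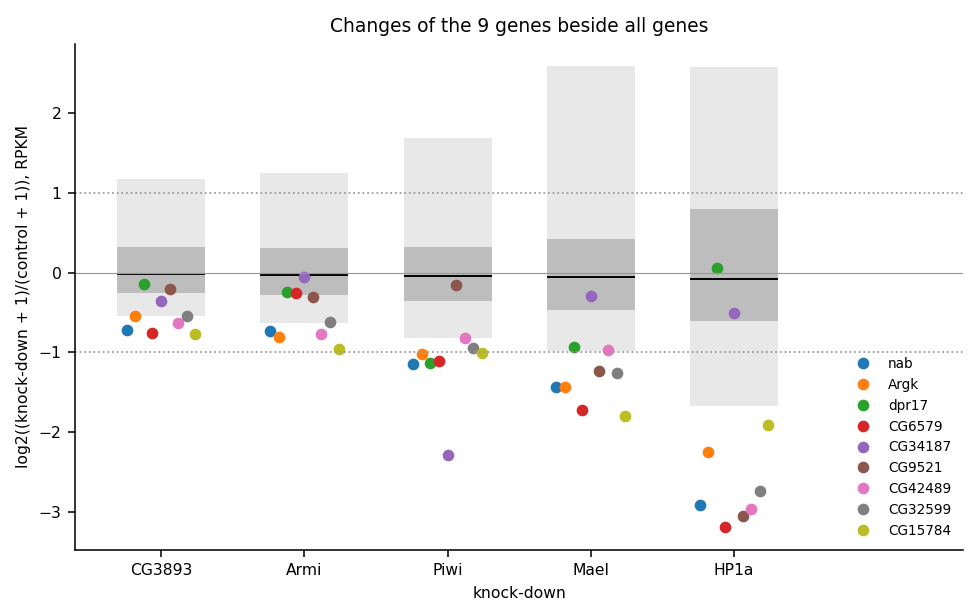
Log2 change of each of the 9 genes (colours) in each knock-down, on the RPKM + 1 scale, over bands that hold the middle 99% (light) and middle 90% (dark) of all 7565 genes, with the median as a line and dotted lines at 2-fold. In HP1a 7 points lie below the light band, between -3.19 and -1.91, and in CG3893 and Armi every point lies above the lower dotted line.

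Comparisons between knock-downs leave the control out. Low values in Piwi, Mael or HP1a still chose the members, so nothing is read from the counts in those libraries. Against the median of the other 4 knock-downs, 6 of the 9 genes were past 2-fold lower in HP1a, beside 1.06% of all genes, namely nab, Argk, CG6579, CG9521, CG42489 and CG32599. The lowest was CG9521, at 9.47% of that median, while CG15784 was at 52.2%. On the same basis only CG34187 was past 2-fold lower in Piwi, at 17.6% of the median, beside 0.145% of all genes, and dpr17 was at 48.3%, a log2 change of -0.94. In Mael 0 of 9 were past 2-fold lower than the median of the other knock-downs, beside 0.159% of all genes. CG9521 stood at 48.1% of that median, CG6579, CG15784 and dpr17 between 54.0% and 56.5%, nab, Argk and CG32599 between 67.9% and 69.3%, CG42489 at 87.96% and CG34187 at 111%. In Piwi the 7 genes other than CG34187 and dpr17 stood between 91.98% and 149% of that median. No member was past it in Armi or CG3893, beside 0.555% and 0.278% of all genes.

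Pairs of single knock-downs were compared after the values were seen. Where HP1a, Mael or Piwi is in a pair, its values chose the members, so nothing is read from those counts. Set directly against Mael, HP1a was past 2-fold lower for 5 of the 9 genes, nab, CG6579, CG9521, CG42489 and CG32599, beside 1.04% of all genes. The level in Mael was 5.35-fold that in HP1a for CG42489, 5.08-fold for CG9521, 3.72-fold for nab, 3.69-fold for CG6579 and 3.28-fold for CG32599, but 1.08-fold for CG15784. Against Piwi, HP1a was past 2-fold lower for 6 of 9, beside 1.11% of all genes. Between Mael and Piwi, CG9521 was past 2-fold lower in Mael, at 44.5% of its level in Piwi, beside 0.185% of all genes. Against CG3893, only CG34187 was past 2-fold lower in Piwi, beside 0.119% of all genes. In Mael CG9521 and CG15784 were, beside 0.159%. By plain ratio, dpr17 in Piwi was at 46.6% of CG3893 and CG6579 in Mael at 47.7%. Both missed the limit through the added 1 RPKM. Between Armi and CG3893, the libraries that chose no member, 0 of 9 were past 2-fold lower in Armi, beside 0.225% of all genes. CG6579 stood highest in that comparison, at 144% of its CG3893 level, and Argk lowest, at 82.9%.

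The order of the 6 libraries, from lowest to highest HP1a, Mael, Piwi, Armi, CG3893 and control, was shared in full by nab, Argk, CG42489, CG32599 and CG15784. Of all 7565 genes, 232 (3.07%) had this order, and 1396 (18.5%) had HP1a lowest and the control highest. Low values in HP1a, Mael or Piwi relative to the control chose the members. The shared order thus largely restates the choice and carries no test. CG6579 differed in having Armi above CG3893, and CG9521 in having Piwi above both. The steps between neighbours in the order were at times small: nab in Armi and CG3893 differed by less than their counting intervals, 50.3 to 66.8% and 51.8 to 66.5% of control. The HP1a interval lay below that of every other knock-down for nab, Argk, CG6579, CG9521, CG42489, CG32599 and CG15784. Low HP1a values were part of the choice, so this carries no test either. The targets were depleted unequally, from 10.3% of control for mael to 48.4% for CG3893, so this order of libraries is not an order of the factors.

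The genes most like each member were found by the root mean square distance between their 5 log2 changes, over all 7565 genes. The nearest to nab was another member, CG32599, at a distance of 0.18, and then Buffy, a Bcl-2 family gene, at 0.20; Buffy went from 9.17 RPKM in the control to 0.792 in HP1a. The nearest to Argk was Hf, at 0.14, which stood at 33.6 RPKM in the control and 6.29 in HP1a. CG42489 and CG32599 were 0.19 apart, and CG6579 was nearest to nab, at 0.28. CG15784 was nearest to CG8213 (flz), a serine protease gene, at 0.24, and CG9521 to CG7224, at 0.32. For dpr17 the nearest was Pcp, a pupal cuticle gene, at 0.23. For CG34187 it was piwi, the gene targeted in the library where CG34187 is lowest, at 0.36, and no other gene was nearer than CG15202, at 0.57. All these distances include the shared control.

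The 9 genes lay on 5 chromosome arms, with 3 on X, 2 on 3L, 2 on 3R, 1 on 2L and 1 on 2R. Of all 7565 genes, 17.5% lay on X, 19.3% on 3L, 24.1% on 3R, 17.5% on 2L and 20.2% on 2R. The neighbours varied in both directions. For the 18 nearest genes that reached a mean of 1 RPKM, on either side of each member, the median in HP1a was 99.52% of control, and 2 were past 2-fold lower in HP1a, beside 1.61% of all genes. The nearer was CG1299, 1.14 kb from nab, with 2.17 RPKM in HP1a against 6.57 in the control, or 33.1%. The other was CG32762, 67.8 kb from CG15784, at 41.5%. Lower by less were aret, beside CG6579, at 58.1% and trpm at 65.7%. Above the control in HP1a were CG9503 at 126%, CG5194, beside Argk, at 131% and CG14741, beside dpr17, at 219%, with 2.29 RPKM against 1.05. None of the 18 was past 2-fold higher in HP1a on the RPKM + 1 scale, beside 3.61% of all genes.

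Several members lay within 2 kb of a gene whose level in HP1a was near the control. CG42489 lies 28 bases from CG11753 and 0.820 kb from bel, a DEAD-box helicase gene; in HP1a, where CG42489 was at 9.17% of control, these stood at 102% and 89.0%. CG32599 lies 0.866 kb from the gene of the mRNA capping enzyme and 1.33 kb from mud, which stood at 91.8% and 92.3% in HP1a. CG6579 lies 1.36 kb from CG17218 (crok), another Ly6 family gene, at 111% of control in HP1a. CG9521 lies inside the span of Flo-2, a flotillin gene, which ranged from 27.2 RPKM, in the control, up to 32.8, in HP1a. The kit named in the labels does not mark strand, so reads of CG9521 and of Flo-2 in any shared exon cannot be told apart.

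**Figure D5:**
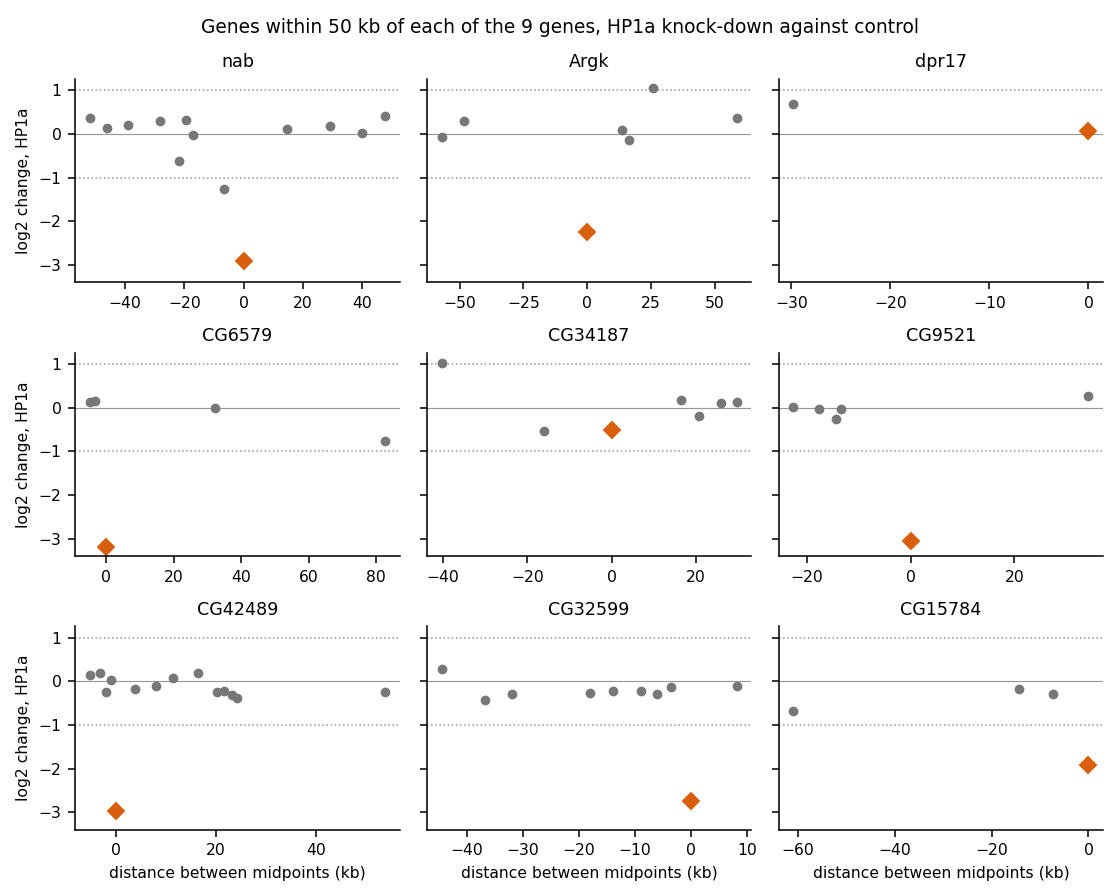
Log2 change in HP1a against control, on the RPKM + 1 scale, of each member (orange diamond) and of all genes with a mean of at least 1 RPKM whose nearer edge lies within 50 kb of it (grey points), by the distance between midpoints in kb; dotted lines mark 2-fold. Of 59 such neighbours 1 was past 2-fold lower, CG1299 beside nab, where 1.61% of all genes were. Past 2-fold higher were 2, Tequila beside Argk and scb beside CG34187, where 3.61% of all genes were.

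Among markers of other tissues, part of the muscle list was low in the same libraries as the members. Of 8 muscle genes, 3 had a mean of at least 1 RPKM, and Act57B and Prm were past 2-fold lower in HP1a, beside 1.61% of all genes. In Mael neither was past it, at log2 changes of -0.98 for Act57B and -0.62 for Prm. Act57B, an actin gene, stood at 47.9 RPKM in HP1a and 75.6 in Mael, below the 127 of Piwi, the 133 of CG3893, the 152 of Armi and the 150.5 of the control. Prm, the paramyosin gene, stood at 4.5997 RPKM in HP1a and 8.99 in Mael, below the 11.1 of Piwi, the 14.3 of CG3893, the 14.4 of the control and the 15.7 of Armi. The list summed to 58.3 RPKM in HP1a, 91.8 in Mael and 171 in the control. The troponin and muscle actin and tropomyosin genes up, wupA, Act88F and Tm2 were at most 0.161 RPKM in every library. Mhc was at 5.44 RPKM in the control and 4.32 in HP1a, and Mlc2 at 0.778 and 1.205. The part of the muscle genes in the members' values was not tested. Of 6 neuron markers, elav and futsch had a mean of at least 1 RPKM and none was past 2-fold in any knock-down, and their list summed to 15.4 RPKM in the control against 19.8 in HP1a. Of 6 follicle markers that reached a mean of 1 RPKM, none was past 2-fold lower in any knock-down, and Fas3, at 41.5 RPKM in the control and 108 in HP1a, was past 2-fold higher there.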

How the data were processed

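The authors deposited 1 table of gene RPKM per library, per the file headers. Cufflinks 2.0.2, TopHat2 2.0.7, Bowtie2 2.0.0, cutadapt and build dm3 are listed, per the submitters' processing notes. Poly(A) RNA was prepared with a TruSeq kit, per the labels' protocols. For the annotation and for reads with several matches, the setting is not given in the sources used here. Paralogs may share reads. The 14145 entries were summed to 13984 gene names, and 322 short RNA genes were left out. Loci are as in the files; whether starts count from 0 is not stated. A RefSeq gene table of release 6 served for names alone and held 13904 of the names.

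Changes are log2((knock-down + 1)/(control + 1)), which understates low genes; percents of control are plain ratios. With 1 library per group, a limit of 2-fold stood in place of a test. Named genes are the members, targets, nearest neighbours, the 2 most alike genes, those ranked beside or ahead of members, and genes of each list. For the muscle, hemocyte and Ly6 lists, more were named than the 2 to 4 planned. Members and lists were chosen with earlier results of these data known. The genes in the 50 kb windows and the comparisons between knock-downs other than against their median were added after the values were seen.

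Library totals were recovered from the deposited tables of transposable elements, taking values as whole reads over length and total. In simulated tables built in that form, 60 of 60 totals were found, which tests the search but not the form of the deposited values. Of the 60 deposited entries used, 96.7% gave a whole length. With the recovered totals, 40.0% of ratios among low gene values lay within 0.05 of a whole number, against 10% for even spacing. Intervals are 95% Clopper-Pearson on the reads of 1 kb of transcript (0.892 kb for CG42489). They cover counting error only, as each group held 1 library. They may be too narrow even for that, since reads were not tagged by molecule. Python 3.11.15, numpy 2.4.6, pandas 2.3.3 and scipy 1.17.1 were used. Sequences were not used here.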

Additional observations from a re-analysis of the deposited data

How the results depend on the processing

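No paired analysis was possible because each group holds 1 library, and for the same reason no library could be left out. The main numbers of the 9 genes past 2-fold lower were 7 in HP1a, 6 in Mael, 6 in Piwi, 0 in Armi and 0 in CG3893, and of all genes 122, 36, 16, 6 and 4. The 7 in HP1a became 6 against the median of the other 4 knock-downs, which leaves the control out. Values in HP1a, Mael and Piwi chose the members, so their counts carry no test here either. On that basis Piwi had 1 and Mael 0, with all genes at 80 in HP1a, 42 in Armi, 21 in CG3893, 12 in Mael and 11 in Piwi. There Argk in Piwi turned to 0.073, CG6579 in Piwi to 0.047 and CG15784 in Piwi to 0.31. With a pseudocount of 5, Piwi had 2 members, and all genes were 3, 3, 14, 2 and 65 in Piwi, Armi, Mael, CG3893 and HP1a. With 0.1, 8 members passed in Mael, dpr17 and CG42489 being added. All genes were then 46, 21, 54, 15 and 174 in Piwi, Armi, Mael, CG3893 and HP1a. At 1.5-fold, 5 members passed in Armi and 4 in CG3893, and all genes were 102, 51, 173, 28 and 393. At 3-fold, 1 member passed in Piwi and 2 in Mael, and all genes were 3 in Piwi, 2 in Armi, 13 in Mael and 43 in HP1a. With a mean of at least 5 RPKM, all genes were 7 in Piwi, 3 in Armi, 21 in Mael and 2 in CG3893, and with no filter 7 in CG3893. Centring on the median gene left 43 of 45 changes of single members on their side of the limit; Argk and CG15784 in Piwi passed to the other. The causes were not tested. Depth limits the lowest values, such as CG9521 in HP1a, with 31.0 reads per kilobase.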
